A study of Mus musculus with 2 samples.

Results

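The macrophage genes described here are 41 genes of scavenger, Fc and pattern receptors, complement C1q, macrophage polarisation, the phagocyte oxidase and related functions. They form a list of gene symbols drawn up with earlier results of these data known, with no measured value in the rule, and each was followed through every probe set, a group of short oligonucleotides read as 1 value, that the platform annotation lists for that gene alone. All 41 had such a probe set. They made up 41 of the 12393 named genes and 59 of the 22690 probe sets, with 1 probe set for 30 genes and several for 11. The study hybridised total RNA of mouse femur to 2 arrays. One array holds an allograft sample, from tissue moved between animals of one species, and the other an autograft sample, from tissue moved within one animal. Both are labelled as femur of the strain c57Bl/6, which does not say whether the strain is donor or recipient of the allograft. The sources used here do not give genotype, sex, age, time after grafting, treatment or how many animals a sample holds. With 1 array per graft type no difference below has a replicate check and no test was possible. Having so few arrays limits the precision of every value, and each describes these arrays only.

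Macrophages are phagocytes that derive from marrow monocytes or from embryonic precursors and depend on the growth factor CSF1. They bind microbes, antibody-coated particles and dying cells through scavenger, Fc, lectin and Toll-like receptors, and destroy what they take up in the lysosome. In the femur they sit in the marrow around maturing red cells and on bone surfaces, and they share their lineage with the osteoclast. The RNA came from whole tissue, so fewer macrophages and less RNA per macrophage cannot be told apart.

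Intensities at or above 175, the median of the non-control values of both arrays, are called above the floor, and lower values were set to 175 before log2 was taken. The log2 ratio is always allograft minus autograft. A gene that passed the floor on 1 array alone has a bound as its ratio. Of 17 macrophage markers, 12 were above the floor on both arrays, among them Adgre1, Mpeg1, Mrc1, the 3 C1q chains, Cd68 and Csf1r. Siglec1, Vsig4 and Marco were below it on both. The floor is a median, and 7100 of all 12393 genes were above it on both arrays.

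Ratios of macrophage genes were spread about as widely as those of all genes. Of the 41 members, 30 were above the floor on both arrays, beside 7100 of all 12393 genes. A further 2 passed it in the allograft alone, 1 in the autograft alone and 8 on neither. None of the 33 above the floor was 2-fold apart, with 0 higher and 0 lower in the allograft. Over all 7836 genes above the floor on at least 1 array, 0.842% reached 2-fold on the allograft side and 0.702% on the autograft side, so a count of 0 among 33 is near that background. At least 1.5-fold apart were 3 members higher in the allograft, Clec4d, Cd163 and Lyz2, and 1 lower, Spi1. That is 9.09% and 3.03% of the 33, beside 3.97% and 6.46% of all genes. The median log2 ratio of the 33 members was 0.13, with a lower quartile of -0.05 and an upper quartile of 0.28. Over all genes the median was -0.08 and the quartiles were -0.29 and 0.15. A ratio above 0 was found in 20 of 33 members (60.6%), compared with 40.5% of all genes. The SD across the 30 members above the floor on both arrays was 0.33, next to 0.37 over 7100 genes. All 30 lay inside the range of -0.75 to 0.71 that held the central 95% of all genes.

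**Figure D1:**
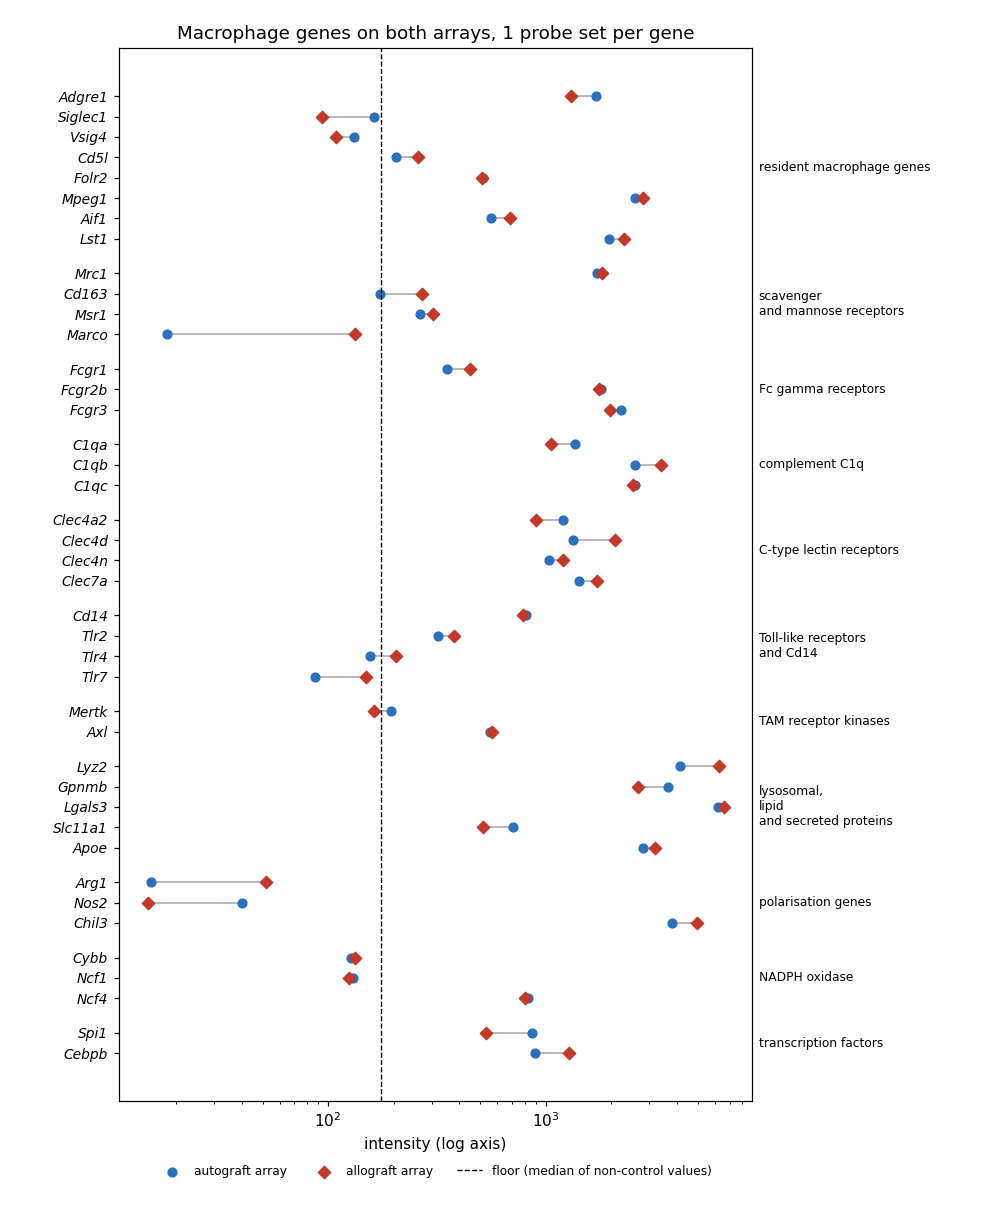
Intensity (log axis) of the 41 macrophage genes, 1 probe set each, on the allograft array (red diamonds) and the autograft array (blue circles), joined by a grey line and grouped by role. The dashed line is the floor at 175; 8 genes lie left of it on both arrays, and for most of the others both symbols nearly touch.

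Genes of resident macrophages were split. Adgre1, the surface antigen most used to mark mouse tissue macrophages, read 1313 in the allograft and 1698 in the autograft. Its log2 ratio of -0.37 made it the lowest of the 6 members of this group above the floor. Cd5l, a secreted protein of tissue macrophages, read 259 against 206 (0.33), and Aif1, the calcium-binding protein also called Iba1, read 682 against 562 (0.28). The name of the only Aif1 probe set marks it as able to bind several transcripts. Lst1, a myeloid surface protein, stood at 2294 against 1958 (0.23), and Mpeg1, the pore-forming perforin-2 of macrophages, at 2800.4 against 2565 (0.13). Folr2, a folate receptor of resident macrophages, was level at 511 against 518 (-0.02). Thus 4 members were above 0 and 2 below, with a median of 0.18. Siglec1, the sialic acid receptor CD169, had 3 probe sets, all below the floor. The brightest read 93.3 in the allograft and 162 in the autograft. Vsig4, a complement receptor of resident macrophages, was below the floor too (109 against 131).

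Of the 4 scavenger and mannose receptors, 3 were above the floor, and 0 of them were 2-fold apart. Mrc1, the mannose receptor, read 1815 against 1727 (log2 ratio 0.07), close to level. Msr1, the class A scavenger receptor, read 302.5 against 265 (0.19) in its brightest probe set, and its other 3 probe sets did not reach the floor. Cd163, the receptor for haptoglobin and haemoglobin, read 270.4 in the allograft and 173 in the autograft, just under the floor, and was at least 1.54-fold higher in the allograft. Marco, a bacterial scavenger receptor, read 134 against 18.1. Neither value reached the floor, and no ratio is given for it at this floor.

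Antibody receptors went separate ways. Fcgr1, the high-affinity activating receptor for IgG, read 451 against 350.5, a log2 ratio of 0.36. Fcgr3, a low-affinity activating receptor, read 1976 against 2213 (-0.16). Fcgr2b, the inhibitory receptor, had 4 probe sets, each above the floor. The probe set used for the gene read 1759 against 1802 (-0.03), and the other 3 stood at -0.43, 0.06 and 0.16. The probe sets of Fcgr2b therefore disagreed in sign, over a range wider than the gap between Fcgr2b and either activating receptor. The name of the probe set used marks it as able to bind several transcripts, and so does that of the one at 0.16.

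The chains of complement C1q did not share a direction, though the ratios of the probe sets used were also smaller in size than that SD of 0.43. C1q is built from A, B and C chains and starts the classical complement pathway. Its genes follow each other on the chromosome in the RefSeq table (assembly GRCm38.p6), in the order C1qb, C1qc, C1qa. C1qa read 1059 in the allograft and 1361 in the autograft, a log2 ratio of -0.36. C1qc was level, at 2533 against 2566 (-0.02). C1qb read 3379 against 2566 (0.40), and its 2 further probe sets also stood above 0, at 0.20 (2771 against 2419) and 0.50 (2204 against 1564). Of the 3 C1qb probe sets 2 are marked as able to bind several transcripts, and the unmarked one had the smallest ratio.

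Among the C-type lectin receptors, 3 of 4 were higher in the allograft. Clec4d, a receptor for mycobacterial glycolipid, had the highest ratio of the members above the floor on both arrays. It read 2087 against 1340.2 (log2 ratio 0.64, a 1.56-fold difference). Clec4n, the fungal receptor dectin-2, is its neighbour in the gene table and read 1202 against 1032 (0.22), with a second probe set at 312 against 257 (0.28). Clec7a, the beta-glucan receptor dectin-1, read 1727 against 1419 (0.28). Clec4a2, an inhibitory lectin receptor, went the other way, with 899 against 1196 (-0.41). A probe set that matches both Clec4a2 and Clec4b1 was also lower in the allograft (922 against 1098, -0.25). The only probe set of Clec4d and the brighter one of Clec4n are marked as able to bind several transcripts, and the second of Clec4n is not.

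Toll-like receptors sense microbial products, and of the 3 among the members Tlr2 alone was above the floor on both arrays. Tlr2, for bacterial lipopeptides, read 381 against 319, a log2 ratio of 0.26. Tlr4, for endotoxin, passed the floor on the allograft array alone (205 against 155) and was at least 1.17-fold higher there, but its second probe set read 135 against 151. Tlr7, for single-stranded RNA, had 3 probe sets, all under the floor: 149.5 against 87.0, 70.6 against 24.0 and 64.2 against 43.8. No ratio is given for it at this floor. Cd14, the endotoxin co-receptor, was level at 785 against 809 (-0.04).

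The TAM kinases bind dying cells through bridging proteins. Axl was level, with 568 against 558 (log2 ratio 0.03). Mertk read 163 in the allograft and 194.5 in the autograft, and was at least 1.11-fold lower in the allograft.

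Lysosomal, lipid and secreted proteins held members at both ends. Lyz2, the lysozyme of macrophages and granulocytes, read 6282 in the allograft and 4156 in the autograft, a log2 ratio of 0.60. Apoe, a lipid carrier made by macrophages, read 3189 against 2796 (0.19). Lgals3, galectin-3, was nearly level at 6575 against 6176 (0.09). Gpnmb, a lysosomal glycoprotein of macrophages and osteoclasts, was lower in the allograft, 2661 against 3634 (-0.45). Slc11a1, the metal transporter NRAMP1 of the phagosome, was lower by as much, 517 against 707 (-0.45). Bright probe sets as a whole leaned towards the allograft: the smoothed trend of the ratio with intensity was 0.19 at the level of Lyz2 and 0.24 at that of Lgals3. With that trend removed, a step added once the values were known, Lyz2 stood at 0.40 and Lgals3 at -0.15.

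**Figure D2:**
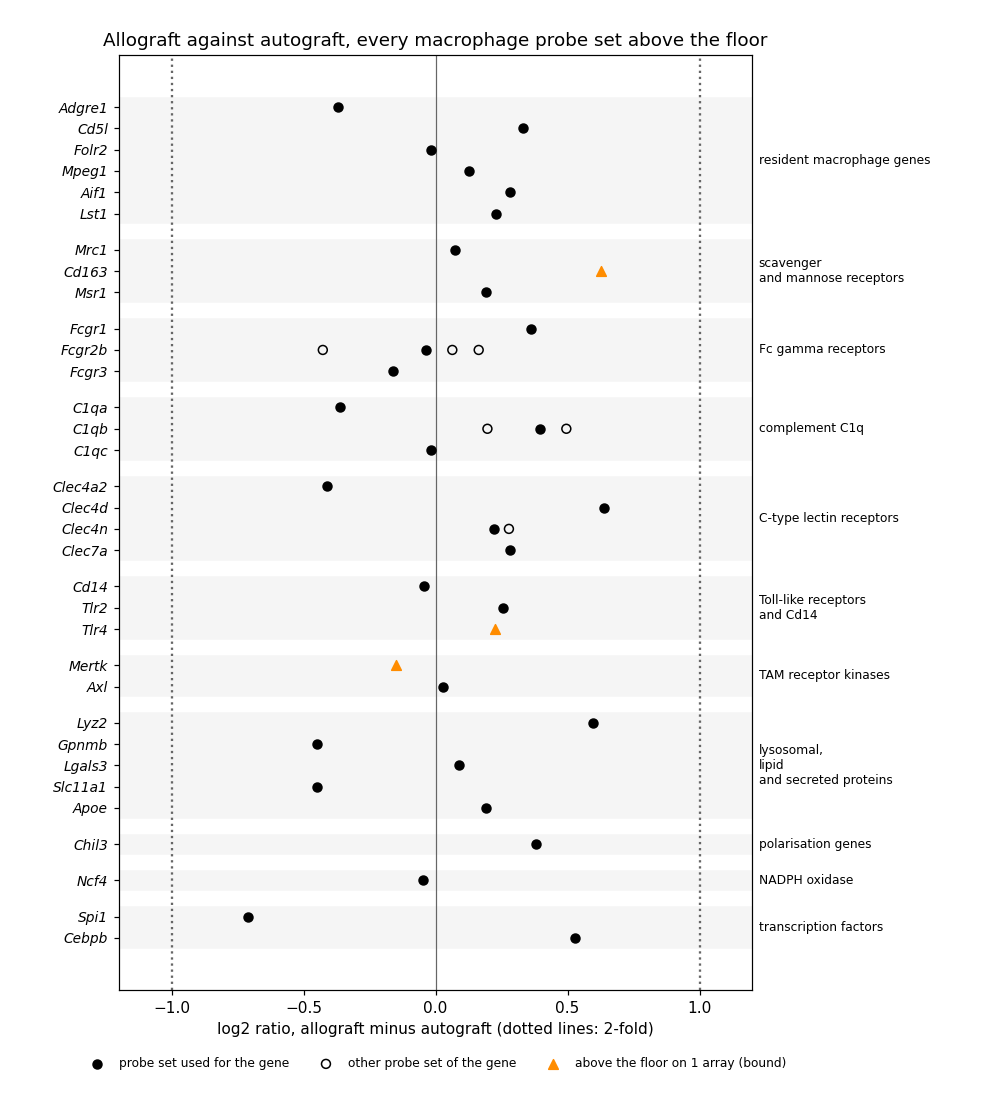
Log2 ratio, allograft minus autograft, of every macrophage probe set above the floor on at least 1 array, by gene and role. Filled circles are the probe sets used for the genes, open circles their other probe sets, orange triangles bounds, and dotted lines 2-fold; all points lie between -0.71 and 0.64, and open circles depart most from the filled ones for Fcgr2b.

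Polarisation genes gave 1 ratio. Arg1, the arginase of alternatively activated macrophages, read 51.7 against 15.4, and Nos2, the inducible nitric oxide synthase of classically activated ones, 14.8 against 40.4. Neither gene reached the floor, and no balance between them can be read. Chil3, the chitinase-like protein Ym1 of alternatively activated macrophages and of neutrophil precursors, read 4964 against 3812 (log2 ratio 0.38), or 0.22 with the intensity trend removed. A probe set that matches both Chil3 and Chil4 read 2273 against 2147 (0.08).

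The phagocyte NADPH oxidase makes superoxide. Its membrane subunit Cybb was below the floor at 133 against 128, and so were both probe sets of the cytosolic subunit Ncf1, the brighter at 125 against 129.5. Ncf4, another cytosolic subunit, was level at 804 against 832 (log2 ratio -0.05). Of the other oxidase genes, Cyba, the partner of Cybb, stood at -0.06 (3473 against 3617), Rac2 at -0.18 (1980 against 2244) and Rac1 at -0.14, with another Rac1 probe set at 0.08.

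The 2 transcription factors among the members stood apart in opposite directions. Spi1, which encodes PU.1, the factor that sets up the macrophage and B cell lineages, had the lowest ratio of all members. It read 529 in the allograft and 866 in the autograft, a log2 ratio of -0.71 or a 1.64-fold difference. Cebpb, a C/EBP factor of macrophage and granulocyte gene expression, read 1280.3 against 889 (0.53). Its second probe set did not reach the floor (66.0 against 61.4).

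The promoters of the members were searched for the motifs of these factors. RefSeq promoters of build GRCm38.p6 were held for 28 of the 41 members, in 33 windows, and the 250 bases before each start were searched. The core of the PU.1 motif, GAGGAA on either strand, was in 17 of 33 windows (51.5%), against 23.3% of all 32851 windows. Counted by gene, 14 of 28 members had it, against 25.9% of all genes. The windows of one gene can overlap. A C/EBP motif, TTGCNNAA on either strand, was in 2 member windows (6.06%, against 9.56% of all), both of Fcgr3, and 0 matches of the 2 motifs overlapped in the members. Of members above the floor, the 12 with the PU.1 core had a median log2 ratio of 0.23 (from -0.45 to 0.64) and the 12 without it 0.11 (from -0.45 to a bound of 0.63 for Cd163). Both ranges overlap almost fully. A match describes letters, not binding, and members without an entry, Spi1 among them, were not searched.

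Shown are the 250 bases before the start of 6 members with the PU.1 core, chosen after their values were seen. Clec4d had the highest and Slc11a1 the lowest ratio among members with the core. The others are Fcgr1, Mrc1 with 3 cores, and the neighbours C1qb and C1qc, whose ratios differ. Each reads 5′ to 3′ on the strand of the gene, and capitals mark GAGGAA or its reverse complement. Clec4d lies at chr6:123261857-123262106 on the plus strand, Slc11a1 at chr1:74374953-74375202 on the plus strand, Mrc1 at chr2:14229164-14229413 on the plus strand, Fcgr1 at chr3:96293970-96294219 on the minus strand, C1qb at chr4:136886201-136886450 on the minus strand and C1qc at chr4:136892915-136893164 on the minus strand.
Clec4d: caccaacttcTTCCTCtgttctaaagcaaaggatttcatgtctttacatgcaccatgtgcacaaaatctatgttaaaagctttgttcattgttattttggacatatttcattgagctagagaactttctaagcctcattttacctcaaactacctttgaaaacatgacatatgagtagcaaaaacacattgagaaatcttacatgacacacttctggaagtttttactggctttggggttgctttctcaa
Slc11a1: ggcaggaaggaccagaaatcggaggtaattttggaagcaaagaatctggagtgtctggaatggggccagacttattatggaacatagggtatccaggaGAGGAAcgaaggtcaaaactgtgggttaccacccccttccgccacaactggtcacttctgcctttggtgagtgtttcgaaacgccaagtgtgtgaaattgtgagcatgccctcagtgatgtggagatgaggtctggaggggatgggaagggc
Mrc1: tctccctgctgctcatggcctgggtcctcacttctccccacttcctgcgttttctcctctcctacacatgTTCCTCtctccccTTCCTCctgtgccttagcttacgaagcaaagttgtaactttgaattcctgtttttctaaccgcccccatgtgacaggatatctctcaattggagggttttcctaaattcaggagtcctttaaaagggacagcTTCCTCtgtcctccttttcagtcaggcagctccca
Fcgr1: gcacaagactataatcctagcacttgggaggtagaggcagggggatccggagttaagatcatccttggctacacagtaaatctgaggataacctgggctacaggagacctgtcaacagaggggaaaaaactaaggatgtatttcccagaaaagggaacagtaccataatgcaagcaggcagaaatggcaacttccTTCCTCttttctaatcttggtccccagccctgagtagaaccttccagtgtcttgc
C1qb: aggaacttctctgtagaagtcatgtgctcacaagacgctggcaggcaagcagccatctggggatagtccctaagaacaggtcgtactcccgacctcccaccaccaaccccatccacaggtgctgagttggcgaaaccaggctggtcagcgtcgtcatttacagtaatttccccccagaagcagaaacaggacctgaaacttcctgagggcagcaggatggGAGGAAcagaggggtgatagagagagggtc
C1qc: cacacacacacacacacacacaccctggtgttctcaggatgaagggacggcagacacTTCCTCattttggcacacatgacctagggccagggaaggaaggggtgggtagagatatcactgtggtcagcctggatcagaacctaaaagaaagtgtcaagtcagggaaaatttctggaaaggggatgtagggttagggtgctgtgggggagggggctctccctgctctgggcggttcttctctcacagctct

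In these windows the core starts 30 bases before the start of C1qb and 193 bases before that of C1qc. For Fcgr1 it lies at 55, for Slc11a1 at 152 and for Clec4d at 240 bases, while Mrc1 has it at 35, 167 and 180 bases.

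**Figure D3:**
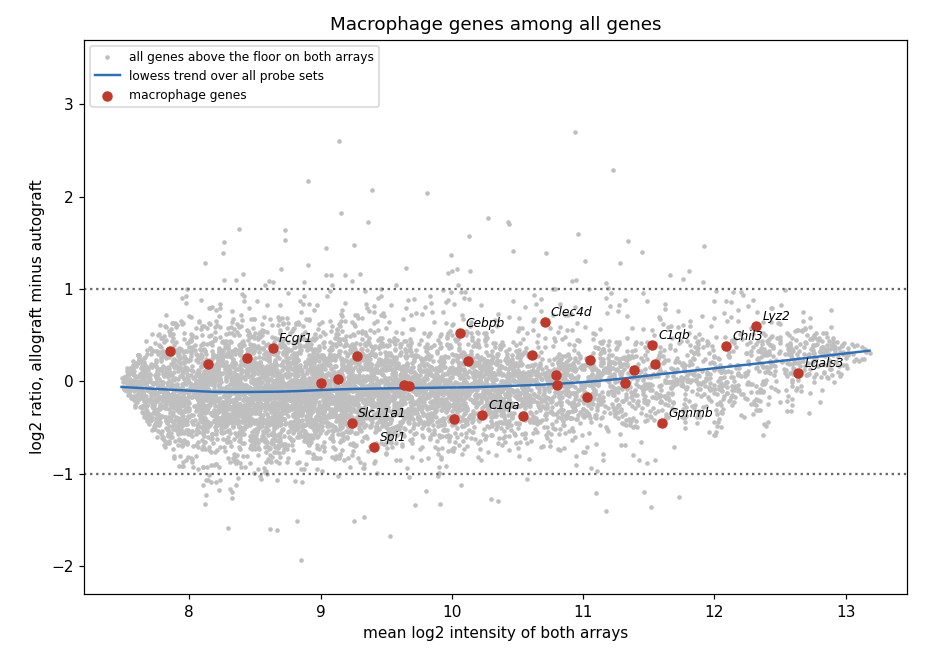
Log2 ratio, allograft minus autograft, against mean log2 intensity for all genes above the floor on both arrays (grey) and the macrophage genes among them (red), with the lowess trend (blue) and dotted lines at 2-fold. The trend is near or below 0 for dim genes and above it for bright ones such as Lyz2 and Lgals3; Clec4d is the highest macrophage point and Spi1 the lowest.

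Genes that work with the members were followed in 8 lists of 87 entries, of which 69 had a probe set and 55 were above the floor. None of the 55 was 2-fold apart in the main setting, and their median log2 ratio was -0.06, with 22 above 0 and 33 below. The list of adaptors, kinases and other signalling genes of Fc and lectin receptors had a median of 0.14 (5 of 9 above 0). Among the 9 are the phosphatase genes Ptpn6 and Inpp5d, both above 0. With the intensity trend removed the list median was 0.01, and after scaling to the 75th percentile it was 0.20. Btk (0.34) and Ptpn6, a phosphatase (0.34, with a second probe set at -0.04), were highest, and Syk (-0.15) and Fgr (-0.16), both kinases, lowest. Fcer1g, the signalling chain of activating Fc receptors, stood at 0.29 (3382 against 2764) and Tyrobp, the adaptor DAP12, at 0.14.

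Markers common to macrophages and monocytes disagreed, 4 above 0 and 4 below, with a median of 0.02. Itgam and Cx3cr1 were below the floor on both arrays. Csf1r, the CSF1 receptor, had 3 probe sets that pointed in different directions: 8219 against 5221 (log2 ratio 0.65), 3159 against 3218 (-0.03) and 1207 against 1821 (-0.59). Lyz1, a lysozyme whose sequence is close to that of Lyz2, stood at 0.15, in a probe set marked as able to bind several transcripts. Another Lyz1 probe set with that mark stood at 0.44, and the unmarked one was below the floor (67.9 against 149.7). Itgax, the integrin CD11c, was lowest at -0.76 (794 against 1340.0) and Cd68, a lysosomal protein of macrophages, next at -0.55 (3294 against 4827). Of the colony-stimulating factors and receptors, Csf2rb had a bound of 0.68 and Csf3r, the granulocyte factor receptor, stood at 0.43. Csf1 itself was at -0.31 and Csf2ra, a receptor chain for GM-CSF, at -0.92 (721 against 1361).

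Other complement genes lay mostly below 0, 7 of 8, with a median of -0.18, next to -0.08 for all genes. Itgb2, the beta chain of the complement receptors CR3 and CR4, was lowest at -0.39 (3035 against 3987), followed by the receptor C3ar1 (-0.32, with -0.36 in its second probe set). C1s1, a protease that binds C1q, was the exception at 0.09, and C1ra, its partner protease, stood at -0.05. Scaling to the 75th percentile left 6 of these 8 below 0, with a median of -0.11.

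In Toll-like receptor signalling, 3 of 7 genes were above 0 and the median was -0.02, or 0.04 after scaling to the 75th percentile. Tlr1, Tlr3, Tlr6, Tlr9 and the adaptor gene Traf6 were below the floor on both arrays. Irak1, a receptor-associated kinase, stood at 0.42 but its further probe sets ran from -0.25 to 0.56. Ly96, which presents endotoxin to Tlr4, was at 0.35, while Myd88, the main adaptor, was at -0.41 (723 against 958) and Cd180, a Tlr4-related receptor, at -0.70 (216 against 351). For the clearance of dead cells, 4 of 8 genes were above 0. Scarb1, a lipoprotein receptor, was highest at 0.21, although its other probe sets stood at -0.15 and -0.70, followed by Stab2 at 0.14. Mfge8 (-0.35) and Stab1 (-0.39), which bind dying cells, were lowest, and Gas6, the ligand of Axl and Mertk, was at 0.07. Of the other myeloid transcription factors, Runx1 (a bound of 0.41) and Irf8 (0.40) were highest and Klf4 (-0.39, second probe set -0.93) and Klf2 (-0.57) lowest, with 3 of 8 above 0.

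**Figure D4:**
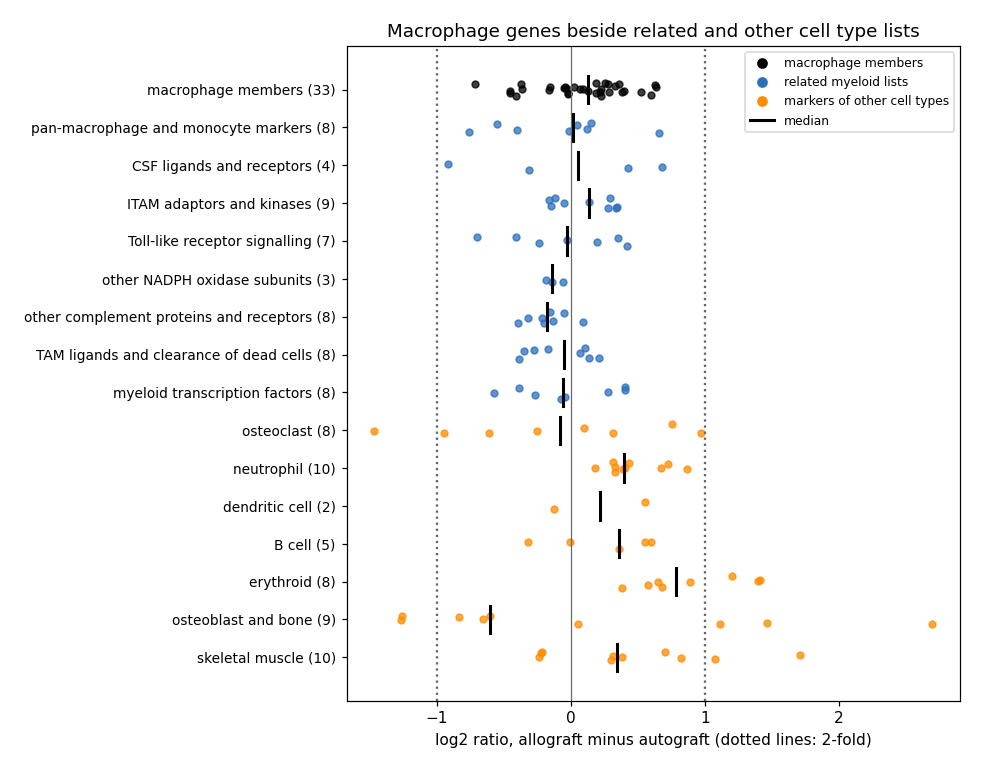
Log2 ratio, allograft minus autograft, of the macrophage members (black), of 8 related myeloid lists (blue) and of markers of 7 other cell types (orange), with genes above the floor as points (their number in brackets) and list medians as black bars; dotted lines mark 2-fold. Macrophage points fall between -0.71 and 0.64. Points of the related lists and of the neutrophil, B cell and dendritic cell markers also stay within 2-fold, whereas erythroid, bone, muscle and osteoclast points reach past it.

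Markers of other cells of the femur are given beside these values, and their part in the macrophage result was not tested. All 10 neutrophil markers above the floor had a ratio above 0, from 0.18 to 0.86 with a median of 0.40, and Cxcr2 was below the floor. With the intensity trend removed 9 of 10 were above 0 and the median was 0.26. The 8 erythroid markers ran from 0.38 to 1.41, 3 of them at least 2-fold. The 8 osteoclast markers above the floor were split, 4 above 0 and 4 below, from -1.46 for the fusion gene Ocstamp to 0.97 for the phosphatase gene Acp5. The 5 B cell markers ran from -0.32 to 0.60. Dendritic cell markers were mostly below the floor, 5 of 7. Bone markers lay on both sides: of 9 above the floor, 3 passed 2-fold towards the allograft and 2 towards the autograft, from -1.27 for Omd to 2.70 for the collagen gene Col1a1, with a median of -0.60. Of the 10 skeletal muscle markers 7 were above 0, from -0.24 to 1.71 for the calcium pump gene Atp2a1, and 2 passed 2-fold. The beta-actin control gave a 3′ to 5′ ratio of 1.77 for the allograft array and 1.19 for the autograft array. The same ratio of the Gapdh control was 0.194 and 0.0349. Both controls thus had the higher ratio on the allograft array, though at very different levels. A part of RNA quality in the ratios above was not tested.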

How the data were processed

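Total RNA of mouse femur was read on 2 arrays, 1 per graft type, grouped by their titles. The values deposited by the authors are linear intensities, with 1 for each probe set on each array. The software, background correction and scaling of the authors are not stated in the labels. The 2% trimmed means were 500.2 and 500.1, within the 10% fixed for using values as deposited. Of 22690 probe sets, 64 were controls, 20380 had 1 gene symbol, 691 had several and 1555 were not listed. All 59 member probe sets matched the RefSeq gene table by Entrez identifier, with 0 symbols changed. For each gene the probe set with the highest mean log2 value after flooring was used. Called means a 2-fold difference, and 1.5-fold was an alternative. All members are named. Of each related list, the text gives genes from both ends and, chosen after their values were seen, Fcer1g, Tyrobp, Lyz1, Gas6 and C1ra. Genes below the floor are also named for the common markers and for Toll-like receptor signalling. The members and lists were chosen with earlier results of these data known. Where a gene had a further probe set above the floor (1925 genes), the difference between its 2 ratios had an SD of 0.43. The counting step was tested on simulated data with large planted changes in bright genes and little noise. That run does not bear on small ratios or on genes near the floor. Python 3.11.15, numpy 2.4.6, pandas 2.3.3, statsmodels 0.14.6 and matplotlib 3.10.9 were used.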

Additional observations from a re-analysis of the deposited data

How the results depend on the processing

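Over 10 alternative settings of scaling, floor, trend and probe set, the median log2 ratio of the macrophage members ranged from 0.07 to 0.19, and it was 0.00 when the members below the floor were included, since those have a ratio of 0 by construction. The mean was 0.09. No member reached 2-fold in either direction in 9 of these settings. With the floor at the 25th percentile, an intensity of 50.6, 1 member did: Marco, at least 2.64-fold higher in the allograft (134 against 18.1), where 1.36% of all genes were 2-fold higher and 2.21% lower. At a threshold of 1.5-fold, 3 members were higher and 1 lower in the main setting. Lyz2 fell short of 1.5-fold after quantile normalization (log2 ratio 0.40) and with the trend removed (0.40). Cebpb passed it after scaling to the 75th percentile (0.59) and with the trend removed (0.59). Of the 33 members, 27 kept the sign of their ratio in every setting in which they were above the floor, 19 above 0 and 8 below. The other 6 were Folr2, Fcgr2b, C1qc, Cd14, Ncf4 and Lgals3. A change of floor cannot reverse the sign of a probe set, and a choice among probe sets cannot do so for a gene with only 1. For such a gene only the scaling and trend settings could change the sign, and none of the settings replaces a replicate. Lgals3 stood at -0.19 after quantile normalization, and Fcgr2b ran from -0.43 to 0.06 with the choice of probe set. Cebpb stood at 0.26 and Clec4a2 at -0.21 with the mean over probe sets, which counts those below the floor at 0. The trend with intensity and the restriction to unmarked probe sets were chosen after the data were seen. Cd163, Tlr4 and Mertk, above the floor on 1 array each, have bounds in place of ratios. No paired analysis was possible because each graft type has 1 array.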
